A study of Mus musculus with 20 samples.

Results

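The 9 genes Ppat, Gart, Pfas, Paics, Adsl, Atic, Cad, Umps and Tyms encode the enzymes that build purine rings and the main steps of pyrimidine synthesis, and they were chosen by name, through their Ensembl identifiers, from gene tables of mouse heart and femur skeletal muscle. All 9 were among the 46649 genes present in both tables, out of 54221 in either. RNA was sequenced from hearts of 5 Taz-KD and 5 WT mice and from femur muscle of 5 Taz-KD and 5 WT mice, and no library label occurs in both tissues. Taz-KD mice carry a doxycycline-inducible short hairpin RNA against Taz (ROSA26H1/tetO-shRNA:TAZ) and model Barth syndrome, in which the acyltransferase tafazzin, which remodels cardiolipin, is lacking. WT mice were C57BL/6N, and both genotypes ate chow with doxycycline at 625 mg/kg and were examined at 20 weeks. The hairpin is expressed from the ROSA26 locus and so is not confined to one cell type, and transgenic mice without doxycycline were not part of the comparison. Whole tissue was used, so a change in RNA per cell and a change in the number of cells of a type cannot be told apart.

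Purine synthesis starts from phosphoribosyl pyrophosphate (PRPP) and adds atoms from glutamine, glycine, aspartate, carbon dioxide and formyl-tetrahydrofolate until inosine monophosphate is made. Gart and Atic are the enzymes that take up the formyl groups carried by folate. Tyms takes a methylene group from folate to make thymidylate, while Cad and Umps make uridylate without any folate. In adult cardiac and skeletal myocytes, which rarely divide, most purines are recovered by salvage, and synthesis from small precursors serves mainly to replace losses. The question put to the tables was whether the enzymes that spend one-carbon units follow the rise of the folate enzymes that supply them.

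Taz, the target of the hairpin, measured 11.7 ± 0.731 CPM in Taz-KD hearts and 37.8 ± 1.398 CPM in WT hearts (CPM, counts brought to one library total with TMM factors; SD, n = 5 each), and 13.4 ± 1.05 CPM in Taz-KD muscle and 51.7 ± 3.42 CPM in WT muscle. The libraries held 30248445 to 35301909 counts in Taz-KD hearts and 26963288 to 30090918 in WT hearts, so each Taz-KD heart was sequenced more deeply than any WT heart, and 46985694 to 74361382 counts in Taz-KD muscle and 36429399 to 61100247 in WT muscle. All 6 cardiac myocyte markers were detected in heart, where their summed level was 37756 to 51736 CPM in Taz-KD and 38426 to 52282 CPM in WT. Among the other marker lists in heart, the sum of the 6 myofibre markers was 1562 to 2412 CPM in Taz-KD and 1007 to 1436 CPM in WT. Of the myofibre markers, 1 of 4 tested genes was called higher (Acta1, an actin that heart also makes). In Taz-KD 3 of 5 red cell markers and 3 of 5 endothelial markers were lower, beside 10.3% of all tested genes. The hearts R1793 and R1797 (Taz-KD) and R3 (WT) had the highest sums of the 3 smooth muscle markers (1111, 814 and 883 CPM, against 235 to 559 CPM in the other hearts) and of the 3 adipocyte markers (57.7, 21.6 and 46.6 CPM, against 1.52 to 15.2 CPM). The part of these markers in the heart results was not tested, and the heart results are also given without these 3 hearts. All 6 myofibre markers were detected in muscle. Their sum was 109545 to 176427 CPM in Taz-KD muscle, and in WT muscle it was 52755 CPM in library A55, 79895 CPM in library A33 and 113342 CPM or more in the other 3. A55 also had the highest sums of the muscle libraries for the 6 cardiac myocyte markers (3401 CPM) and the 3 Schwann cell markers (953 CPM), and A33 for the 4 lymphocyte markers (163 CPM) and the 3 adipocyte markers (1605 CPM). Muscle results are also given without A33 and A55. Both of these alternatives were chosen after the marker values were seen.

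In heart, 3 of the 9 synthesis genes were higher in Taz-KD and none was lower at an adjusted p under 0.05 (edgeR quasi-likelihood test, Benjamini-Hochberg adjustment over 19486 tested genes). Across all tested genes 14.4% were called higher and 10.3% lower. The called genes were Atic, Paics and Umps, and in each of them every Taz-KD heart lay above every WT heart, a separation shown by 11.3% of all genes. The median log2 fold change (Taz-KD over WT) of the 9 genes was 0.15, against -0.016 over all tested genes. Of the 3 enzymes that use folate, Atic rose, while Gart and Tyms had log2 fold changes of 0.15 and -0.17 that did not pass. The other 2 called genes, Paics and Umps, encode enzymes that use no folate. Scaled by library totals with no further factor, Atic, Paics and Umps were again the genes called. The same 3 were called without the hearts R1793, R1797 and R3, with log2 fold changes of 0.70, 0.32 and 0.31 and edgeR adjusted p of 0.00080, 0.0054 and 0.046.

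**Figure D1:**
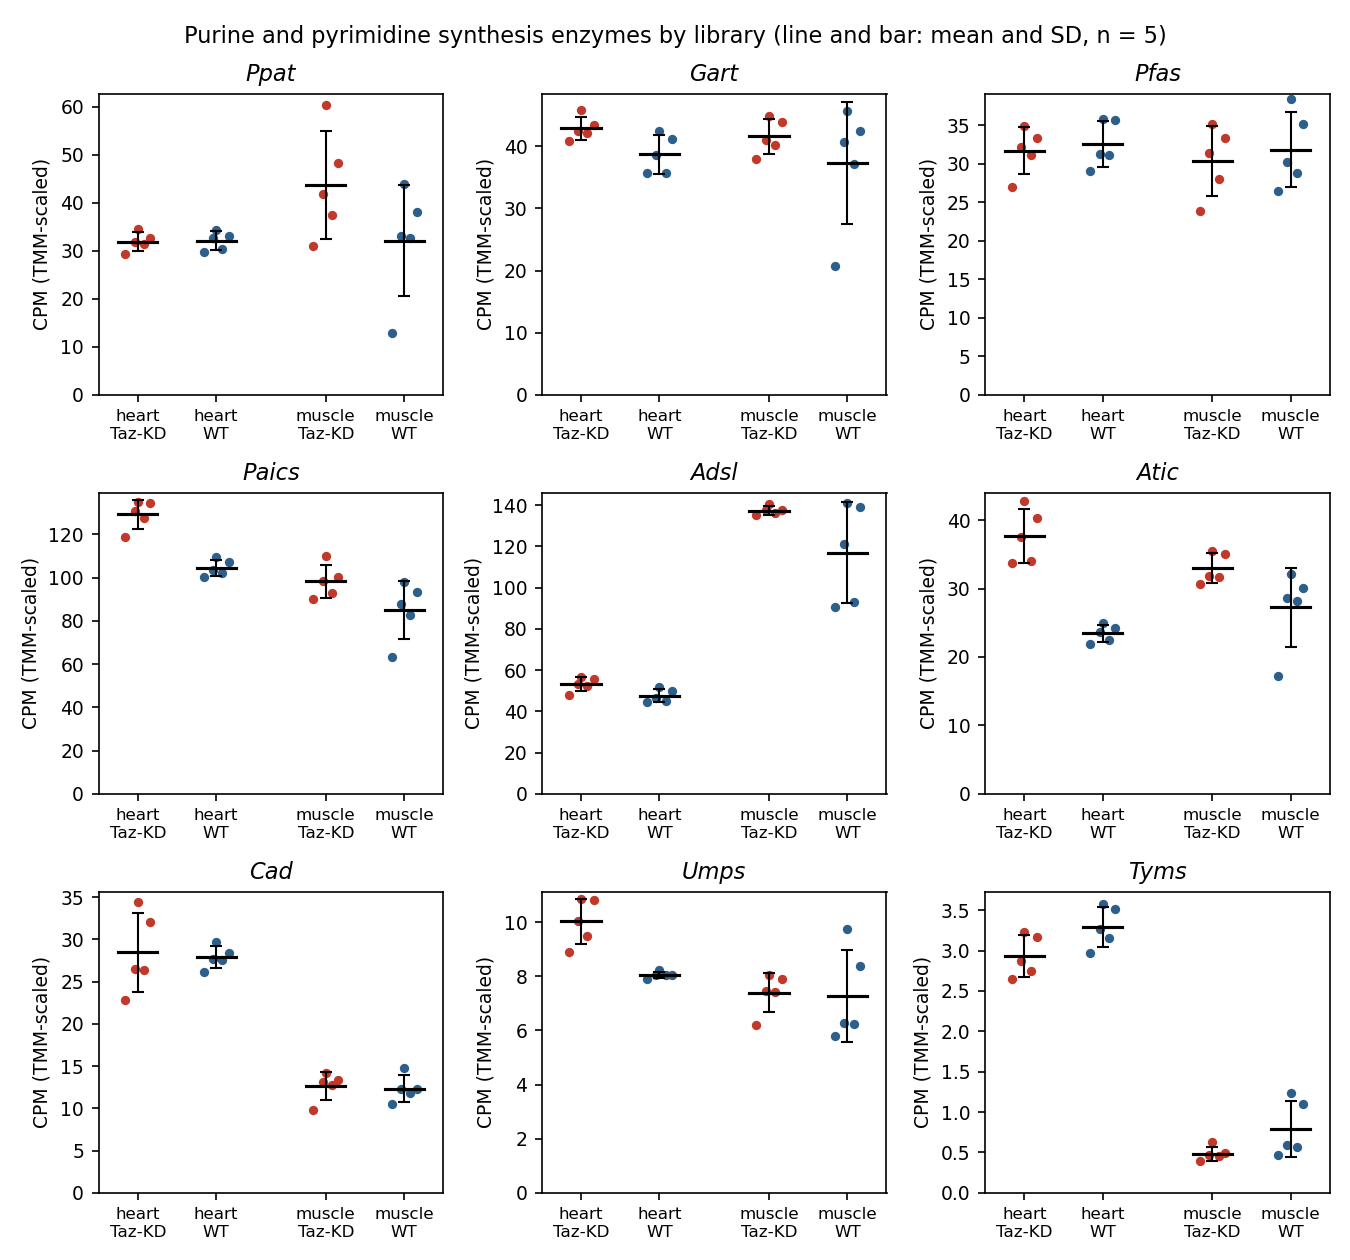
Each panel plots one gene, with CPM on the vertical axis and one point per library for heart Taz-KD, heart WT, muscle Taz-KD and muscle WT; the line and bar are mean and SD (n = 5). Atic, Paics and Umps separate the heart genotypes without overlap, whereas all 9 genes overlap in muscle, where the WT libraries spread widely.

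Atic carries out the final pair of reactions to inosine monophosphate and uses the second formyl group. Its level was 40.4, 42.8, 34.003, 33.7 and 37.6 CPM in the Taz-KD hearts (R1793, R1796, R1797, R1798 and R2), against 24.2, 22.0, 22.6, 23.6 and 24.95 CPM in the WT hearts (R1791, R1792, R1795, R1800 and R3). The lowest Taz-KD heart lay well above the highest WT heart. The log2 fold change was 0.68 (standard error 0.076, 95% interval 0.52 to 0.85, edgeR adjusted p = 4.7e-05), and the call held under all 21 alternatives in heart, with adjusted p from 4.1e-13 to 0.0016. Of all tested genes 4.98% had a larger log2 fold change than Atic, and so did 28.6% of the genes called higher, whose median was 0.47. Atic (ENSMUSG00000026192) lies on chromosome 1 from 71557150 to 71579631 of GRCm38, on the plus strand, and no other annotated gene overlaps it or starts within 2000 bases of its start.

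Paics combines the carboxylase and the succinocarboxamide synthetase of the middle of the pathway. It measured 119, 134, 127, 131 and 135 CPM in the Taz-KD hearts, against 110, 104, 102, 107 and 100.5 CPM in the WT hearts. The groups did not overlap, with the lowest Taz-KD heart above the highest WT heart. The log2 fold change was 0.31 (standard error 0.053, 95% interval 0.19 to 0.42, edgeR adjusted p = 0.0013). Fitting all 20 libraries of both tissues together left the log2 fold change at 0.28 and raised the adjusted p to 0.112, and over the 21 alternatives it ranged from 7.7e-07 to 0.112.

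Umps makes uridylate from orotate. It measured 10.9, 10.8, 8.92, 9.505 and 10.0 CPM in the Taz-KD hearts, against 8.04, 8.24, 8.05, 8.05 and 7.92 CPM in the WT hearts. The WT hearts lay close together and below each Taz-KD heart. The log2 fold change was 0.32 (standard error 0.078, 95% interval 0.15 to 0.49, edgeR adjusted p = 0.011). With all 20 libraries in one fit it was 0.29 with an adjusted p of 0.143, and over the 21 alternatives the adjusted p ranged from 0.0043 to 0.143.

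Ppat, the amidotransferase that commits PRPP to purine synthesis, did not follow. It measured 31.3, 31.8, 29.2, 32.7 and 34.5 CPM in the Taz-KD hearts, against 34.4, 32.7, 30.4, 33.1 and 29.7 CPM in the WT hearts. The ranges were nearly the same, and the log2 fold change was -0.0059 with a 95% interval of -0.14 to 0.13. Gart, the trifunctional enzyme that uses the first formyl group, averaged 42.9 ± 1.85 CPM in Taz-KD hearts and 38.7 ± 3.12 CPM in WT hearts (SD, n = 5 each; log2 fold change 0.15, 95% interval 0.011 to 0.29, edgeR adjusted p = 0.11). Adsl, the lyase that acts in both the main pathway and the branch to adenylate, averaged 53.1 ± 3.54 CPM in Taz-KD hearts and 47.6 ± 3.18 CPM in WT hearts (log2 fold change 0.16, 95% interval 0.017 to 0.30, edgeR adjusted p = 0.098). Without the Taz-KD heart R1798 the adjusted p of Adsl was 0.0443, and over its 21 alternatives it ranged from 0.0443 to 0.622. Both genes overlapped between the genotypes. Pfas, which uses glutamine to make the amidine intermediate, averaged 31.7 ± 3.03 CPM in Taz-KD hearts and 32.6 ± 3.02 CPM in WT hearts, with a log2 fold change of -0.040 and a 95% interval of -0.22 to 0.14.

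Cad, the trifunctional enzyme that opens pyrimidine synthesis, averaged 28.5 ± 4.71 CPM in Taz-KD hearts and 27.9 ± 1.29 CPM in WT hearts (SD, n = 5 each; log2 fold change 0.028, 95% interval -0.19 to 0.24). The Taz-KD hearts ran from 22.8 to 34.4 CPM, on both sides of the WT range of 26.2 to 29.7 CPM. Tyms, the folate-dependent thymidylate synthase and the least abundant of the 9, averaged 2.94 ± 0.257 CPM in Taz-KD hearts and 3.29 ± 0.251 CPM in WT hearts (log2 fold change -0.17, 95% interval -0.41 to 0.075, edgeR adjusted p = 0.31). Tyms is a gene of dividing cells. Among 12 cycling-cell markers none was higher and 2 were lower in Taz-KD hearts, beside 14.4% and 10.3% of all tested genes. The summed level of these markers was 51.9 to 66.8 CPM in Taz-KD and 59.8 to 87.8 CPM in WT. The part of cell division in the Tyms values was not tested.

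**Figure D2:**
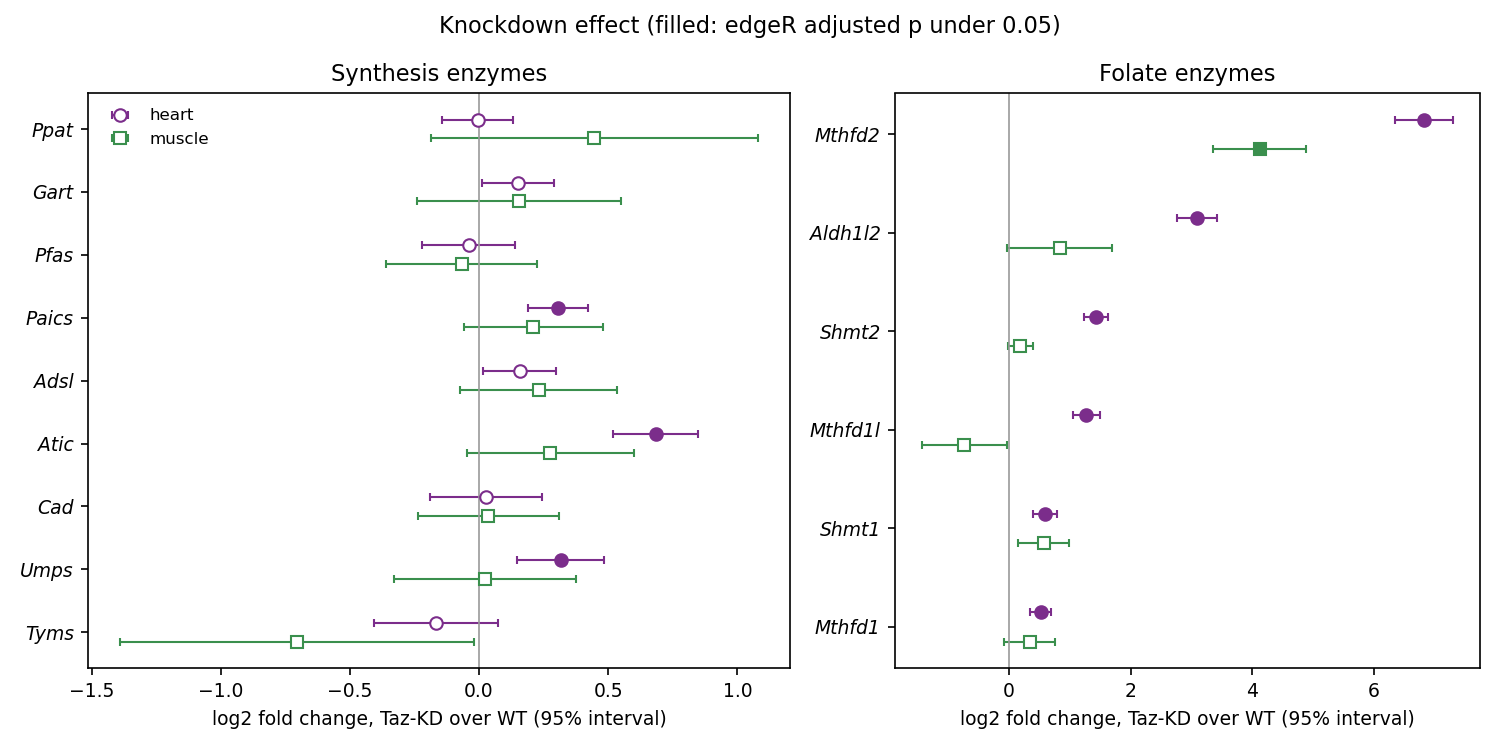
Log2 fold changes (Taz-KD over WT, horizontal axis) with 95% intervals for the 9 synthesis genes on the left and 6 folate enzymes on the right, with circles for heart and squares for muscle; filled symbols passed an edgeR adjusted p of 0.05. The synthesis genes lie between -0.71 and 0.68, while Mthfd2 reaches 6.83 in heart and 4.12 in muscle.

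Per length of exon, the order of the 9 genes differed between the genotypes for one of them. In Taz-KD hearts Paics had 41.1 ± 2.08 RPKM (CPM per kilobase of merged exons; SD, n = 5), followed by Adsl with 9.43, Gart with 8.35, Ppat with 7.22, Atic with 4.72, Pfas with 3.998, Cad with 3.48, Umps with 2.88 and Tyms with 0.482 RPKM. In WT hearts Paics had 33.3 ± 1.18 RPKM, followed by Adsl with 8.46, Gart with 7.52, Ppat with 7.25, Pfas with 4.11, Cad with 3.41, Atic with 2.94, Umps with 2.31 and Tyms with 0.541 RPKM. Atic thus stood above Pfas and Cad in Taz-KD hearts and below them in WT hearts. Gart and Ppat in WT hearts (SD 0.606 and 0.445 RPKM) and Pfas and Cad in Taz-KD hearts (SD 0.382 and 0.576 RPKM) did not differ beyond their spread. Merged exons include those of minor transcripts, so these levels rank the genes only roughly.

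Ratios of counts within a library, which no scaling factor touches, set the called genes against the uncalled ones, and they were chosen after the values were seen and carry no test. The Paics to Ppat ratio was 4.05 ± 0.234 in Taz-KD hearts (3.79 to 4.36) and 3.27 ± 0.0998 in WT hearts (3.17 to 3.39; SD, n = 5 each). The 2 genes are divergent neighbours, and the ratio separated the genotypes without overlap. The Atic to Gart ratio, which compares the enzymes using the second and the first formyl group, was 0.876 ± 0.0634 in Taz-KD hearts and 0.609 ± 0.0539 in WT hearts. The Atic to Ppat ratio was 1.18 ± 0.133 in Taz-KD hearts and 0.735 ± 0.0645 in WT hearts. In muscle all 3 ratios overlapped between genotypes, and the Paics to Ppat ratio was 2.33 ± 0.415 in Taz-KD and 2.96 ± 1.12 in WT.

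**Figure D3:**
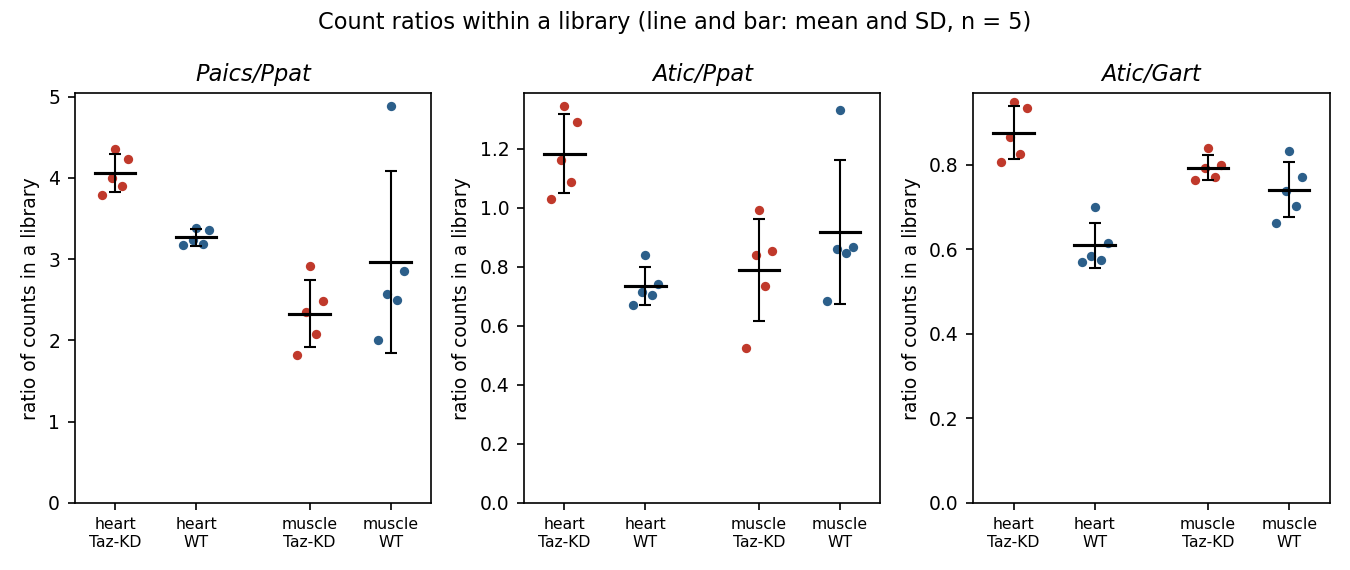
Ratios of counts in the same library (vertical axis) for Paics to Ppat, Atic to Ppat and Atic to Gart, one point per library for heart Taz-KD, heart WT, muscle Taz-KD and muscle WT, with mean and SD (n = 5). The 3 ratios are higher in each Taz-KD heart than in any WT heart and overlap in muscle, where one WT library has a Paics to Ppat ratio of 4.88.

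Ppat and Paics lie head to head on chromosome 5. Ppat (ENSMUSG00000029246, minus strand) spans 76913249 to 76951578 and Paics (ENSMUSG00000029247, plus strand) spans 76951307 to 76967509 of GRCm38, so that their starts lie 271 bases apart and their first exons share 272 bases, which is 6.15% of the exon length of Ppat and 8.67% of that of Paics. The libraries mark the strand, but the strand setting of the counting is not given in the sources used here, so reads in the shared stretch may have been lost or given to either gene. An antisense gene within Ppat, 2310040G07Rik, shares no exon bases with it and measured 3.14 ± 0.658 CPM in Taz-KD hearts and 4.36 ± 0.647 CPM in WT hearts (log2 fold change -0.47, edgeR adjusted p = 0.048). Gart (ENSMUSG00000022962, chromosome 16 from 91621186 to 91646952, minus strand) starts 554 bases from Son and shares 19.7% of its exon length with the antisense gene Gm15964. Gm15964 measured 7.28 ± 0.406 CPM in Taz-KD hearts and 6.59 ± 0.456 CPM in WT hearts, and neither it nor Son was called. Umps (ENSMUSG00000022814, chromosome 16 from 33954782 to 33967038, minus strand) shares 6.11% of its exon length with the antisense gene Gm15829, which measured 1.54 ± 0.382 CPM in Taz-KD hearts and 1.098 ± 0.282 CPM in WT hearts. The antisense level was below that of Umps in both genotypes. The remaining genes, Pfas (ENSMUSG00000020899, chromosome 11 from 68985697 to 69008460), Adsl (ENSMUSG00000022407, chromosome 15 from 80948490 to 80970946), Cad (ENSMUSG00000013629, chromosome 5 from 31054780 to 31078479) and Tyms (ENSMUSG00000025747, chromosome 5 from 30058202 to 30073617), share under 1% of their exon length with any other gene.

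Genes of nucleotide synthesis are known targets of MYC, which binds the E-box CACGTG, and amino acid stress genes are targets of ATF4, which binds the C/EBP-ATF response element (CARE, TGATGNAA). RefSeq start windows of GRCm38.p6, running from 250 bases before a gene's start to 50 after it, were matched for 8 of the 9 genes, all but Pfas, and both strands were searched. CACGTG, which is its own reverse complement, was found in 3 of these 8 windows and in 7.15% of 32851 windows of all genes. TGATGNAA was found in none of the 8 and in 3.97% of all windows. Of the genes with larger changes in heart whose windows were searched, it was found in that of Asns, an amino acid stress gene, and in none of those of Mthfd2, Shmt2, Mthfd1l, Psat1 and Phgdh. In the study, silencing Atf4 in mouse fibroblasts without Taz removed the rise of Mthfd2. A window without TGATGNAA therefore cannot tell whether a gene responds to ATF4. The stretches around the 3 E-boxes are printed below, 5′ to 3′ on each gene's own strand with CACGTG in capitals, because Atic and Paics are among the genes that rose and Tyms is not.
Atic: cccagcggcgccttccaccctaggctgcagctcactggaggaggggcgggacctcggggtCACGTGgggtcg
Tyms: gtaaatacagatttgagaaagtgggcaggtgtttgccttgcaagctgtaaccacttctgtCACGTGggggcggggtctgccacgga
Paics: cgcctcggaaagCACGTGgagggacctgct
They lie at chr1:71557089-71557160 (plus strand), chr5:30073661-30073746 (minus strand) and chr5:76951087-76951116 (plus strand). Counted from the RefSeq starts, the E-box begins 7 bases before the start of Atic, 61 before that of Tyms and 203 before that of Paics. These starts differ by a few bases from the GENCODE starts given above, and the Atic E-box spans the GENCODE start. The Paics E-box lies inside the span of Ppat. A match of letters is not a binding site, and binding was not measured.

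Among the MYC and MAX factors, Myc itself rose in heart, to 23.3 ± 5.92 CPM in Taz-KD, against 5.06 ± 1.20 CPM in WT (SD, n = 5 each; log2 fold change 2.21, edgeR adjusted p = 1.7e-05). Mlxipl, the carbohydrate-responsive factor ChREBP, fell to 18.4 ± 2.06 CPM in Taz-KD, against 41.8 ± 5.50 CPM in WT (log2 fold change -1.19, edgeR adjusted p = 6.6e-06). Its relative Mlxip had a log2 fold change of -0.25 (edgeR adjusted p = 0.018, or 0.061 without the WT heart R1792, 0.053 without the hearts R1793, R1797 and R3, and from 0.0032 to 0.238 over its alternatives). In all, 1 of 9 tested genes of this list was higher and 2 were lower, beside 14.4% and 10.3% of all tested genes. The part of Myc in the levels of the synthesis genes was not tested.

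In femur muscle none of the 9 genes was called. Of 16145 tested genes 3 were called, or 0.0186% (Taz, Mthfd2 and Setd5, the last named after its values were seen), while 2408 had an unadjusted p under 0.05, Tyms among them and none of the other 8. DESeq2 called 145 genes and none of the 9. The median log2 fold change of the 9 was 0.15, against -0.019 over all tested genes, and the estimates had wide intervals. Estimates were positive for 7 of the 9.

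Atic measured 35.05, 31.6, 35.6, 31.9 and 30.7 CPM in the Taz-KD muscles (A34, A39, A52, A56 and A58), against 28.7, 28.2, 30.0, 17.2 and 32.1 CPM in the WT muscles (A33, A40, A51, A55 and A57). The WT muscle A55 stood far below the other 4. Of those, A57 lay within the Taz-KD range and A33, A40 and A51 lay just below it. The log2 fold change was 0.27 (95% interval -0.048 to 0.60, edgeR adjusted p = 0.39), and 0.13 without A33 and A55. A55 was also the lowest of all 10 muscles for Ppat (12.9 CPM), Gart (20.7 CPM), Paics (63.2 CPM) and Adsl (90.55 CPM), and the part of its marker levels, given above, in these values was not tested.

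Ppat had the highest estimate, with 41.8, 60.4, 48.3, 37.3 and 30.9 CPM in the Taz-KD muscles, against 33.1, 32.7, 43.8, 12.9 and 38.0 CPM in the WT muscles. The genotypes overlapped broadly. Its log2 fold change was 0.45 (95% interval -0.19 to 1.08), and 0.19 without A33 and A55. Adsl was almost constant among Taz-KD muscles, at 135 to 140.4 CPM, and ran from 90.55 to 141 CPM in WT muscles, where A33 and A55 were the low ones. Its log2 fold change was 0.23, and 0.035 without them. Paics averaged 98.3 ± 7.76 CPM in Taz-KD and 85.0 ± 13.4 CPM in WT (log2 fold change 0.21, and 0.077 without them), and Gart averaged 41.6 ± 2.82 CPM in Taz-KD and 37.4 ± 9.82 CPM in WT (log2 fold change 0.15, and -0.050 without them). The positive estimates of these 5 purine genes were thus all smaller, or for Gart negative, without the pair of WT muscles. Pfas (30.4 ± 4.51 CPM in Taz-KD and 31.8 ± 4.87 CPM in WT) and Cad (12.6 ± 1.68 and 12.3 ± 1.58 CPM) had log2 fold changes of -0.068 and 0.036. Umps measured 7.40 ± 0.723 CPM in Taz-KD and 7.29 ± 1.71 CPM in WT, with a log2 fold change of 0.023 and a 95% interval of -0.33 to 0.37.

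Tyms was scarce in muscle, with 139 counts over the 5 Taz-KD libraries and 186 over the 5 WT libraries. It measured 0.491, 0.626, 0.467, 0.387 and 0.451 CPM in the Taz-KD muscles, against 1.24, 0.464, 0.597, 1.099 and 0.568 CPM in the WT muscles. A33 and A55 were the high WT muscles, and the other 3 lay within the Taz-KD range. The log2 fold change was -0.71 (95% interval -1.39 to -0.021, unadjusted p = 0.044 and edgeR adjusted p = 0.33), and -0.16 without A33 and A55. A33 also had the highest sum of the 12 cycling-cell markers, at 74.5 CPM. A55 had the lowest such sum of the WT muscles, at 37.8 CPM, and the others had 38.5 to 41.6 CPM. The part of cell division in these Tyms values was not tested.

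An interaction term for tissue by genotype, fitted over all 20 libraries, asked whether the knockdown changed a gene differently in heart and in muscle. None of the 9 genes was called, against 4.62% of 20612 tested genes (952), and none had an unadjusted p under 0.05. Of the genes called, 66.4% had a positive log2 difference (heart minus muscle), or 79.8% when scaled by library totals. That scaling moved the median difference of all genes to 0.21, against 0.022. DESeq2 called none of the 9 either. The log2 difference (heart minus muscle) of Atic was 0.34 with a 95% interval of -0.030 to 0.72 (edgeR adjusted p = 0.30). Without the WT muscle A55 it was 0.51 with an adjusted p of 0.0081, and without A33 and A55 it was 0.54 with an adjusted p of 0.0078. Over its alternatives the adjusted p ran from 0.0078 to 0.43, so that the call on Atic turned on 1 library. Ppat had the difference farthest from 0, at -0.52 (95% interval -1.18 to 0.15), and the intervals of Paics (-0.28 to 0.35) and Umps (-0.13 to 0.56) were wide enough to hold their whole heart log2 fold changes.

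Levels in WT tissue, each scaled within its own table and so only set side by side, differed for some of the genes. Adsl had 117 ± 24.3 CPM in WT muscle and 47.6 ± 3.18 CPM in WT heart, without overlap, and Cad had 12.3 ± 1.58 CPM in WT muscle and 27.9 ± 1.29 CPM in WT heart. In skeletal muscle Adsl and adenylate deaminase are among the enzymes of the purine nucleotide cycle, which turns over adenylate during work. Tyms had 0.793 ± 0.349 CPM in WT muscle and 3.29 ± 0.251 CPM in WT heart. Paics ran from 63.2 to 97.8 CPM in WT muscle and from 100.5 to 109.5 CPM in WT heart, also without overlap. Ppat, Gart, Pfas, Atic and Umps overlapped between the tissues. How many of all genes lay apart between the WT tissues was not counted. Spread among WT muscles was larger than elsewhere, with a median coefficient of variation of the 9 genes of 9.76% in Taz-KD muscle and 21.3% in WT muscle, and of 8.39% in Taz-KD hearts and 6.14% in WT hearts. Over all tested genes it was also largest in WT muscle, at 24.4%, against 14.7% in Taz-KD muscle and 13.3% in hearts of either genotype.

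A few of the folate enzymes had far larger log2 fold changes than the 9 synthesis genes. The median in heart was 0.047 over 11 mitochondrial and 0.18 over 10 cytosolic folate genes, against 0.15 over the 9 synthesis genes. In heart, the mitochondrial dehydrogenase Mthfd2 measured 213 ± 21.9 CPM in Taz-KD and 1.86 ± 0.654 CPM in WT (SD, n = 5 each; log2 fold change 6.83), and Aldh1l2, which releases carbon dioxide from formyl-folate, had a log2 fold change of 3.09. Shmt2, which transfers the one-carbon unit of serine, and Mthfd1l, which releases formate to the cytosol, had log2 fold changes of 1.43 and 1.27. In the cytosol Mthfd1, which turns formate into the formyl-folate that Gart and Atic consume, averaged 41.2 ± 3.81 CPM in Taz-KD and 28.8 ± 2.21 CPM in WT (log2 fold change 0.52, edgeR adjusted p = 0.00041, and 0.059 in one fit of 20 libraries, its highest of 21 alternatives). Shmt1, the cytosolic serine hydroxymethyltransferase, had a log2 fold change of 0.60. In all, 4 of 11 mitochondrial folate genes were higher and 2 were lower (Gcsh at -0.21 and Mthfd2l at -0.28), and 3 of 10 cytosolic ones were higher. Across all tested genes 14.4% were higher and 10.3% lower. Gcsh lost its call in 7 and Mthfd2l in 13 of 21 alternatives, with adjusted p up to 0.0904 and 0.138. All 3 serine synthesis genes rose, with log2 fold changes of 5.93 for Phgdh, 4.65 for Psat1 and 1.09 for Psph.

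In muscle Mthfd2 was the one folate gene called, at 92.1, 80.9, 24.2, 61.5 and 103 CPM in Taz-KD, against 4.49, 4.24, 4.05, 4.58 and 3.38 CPM in WT. Each Taz-KD muscle lay above each WT muscle, and A52 was the lowest of them. The log2 fold change was 4.12 (edgeR adjusted p = 0.00095), and 4.21 without A33 and A55, where the adjusted p rose to 0.175, the highest of its alternatives, which went down to 2.6e-35 with DESeq2. The difference between tissues was 2.65 (edgeR adjusted p = 0.00067). None of the 3 serine synthesis genes was called in muscle. Log2 fold changes were 1.254 for Psat1, -1.890 for Phgdh and 0.141 for Psph. Psat1 ran from 6.39 to 33.1 CPM in Taz-KD and from 1.45 to 17.8 CPM in WT. Phgdh ran from 2.37 to 6.40 CPM in Taz-KD and from 1.72 to 39.7 CPM in WT. A33 was the highest WT muscle for both. Shmt1 had 0.57 (edgeR adjusted p = 0.31) and was higher in each Taz-KD muscle than in any WT muscle. The same held for 171 of 16145 tested genes. A missing call does not show that a gene was unchanged.

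**Figure D4:**
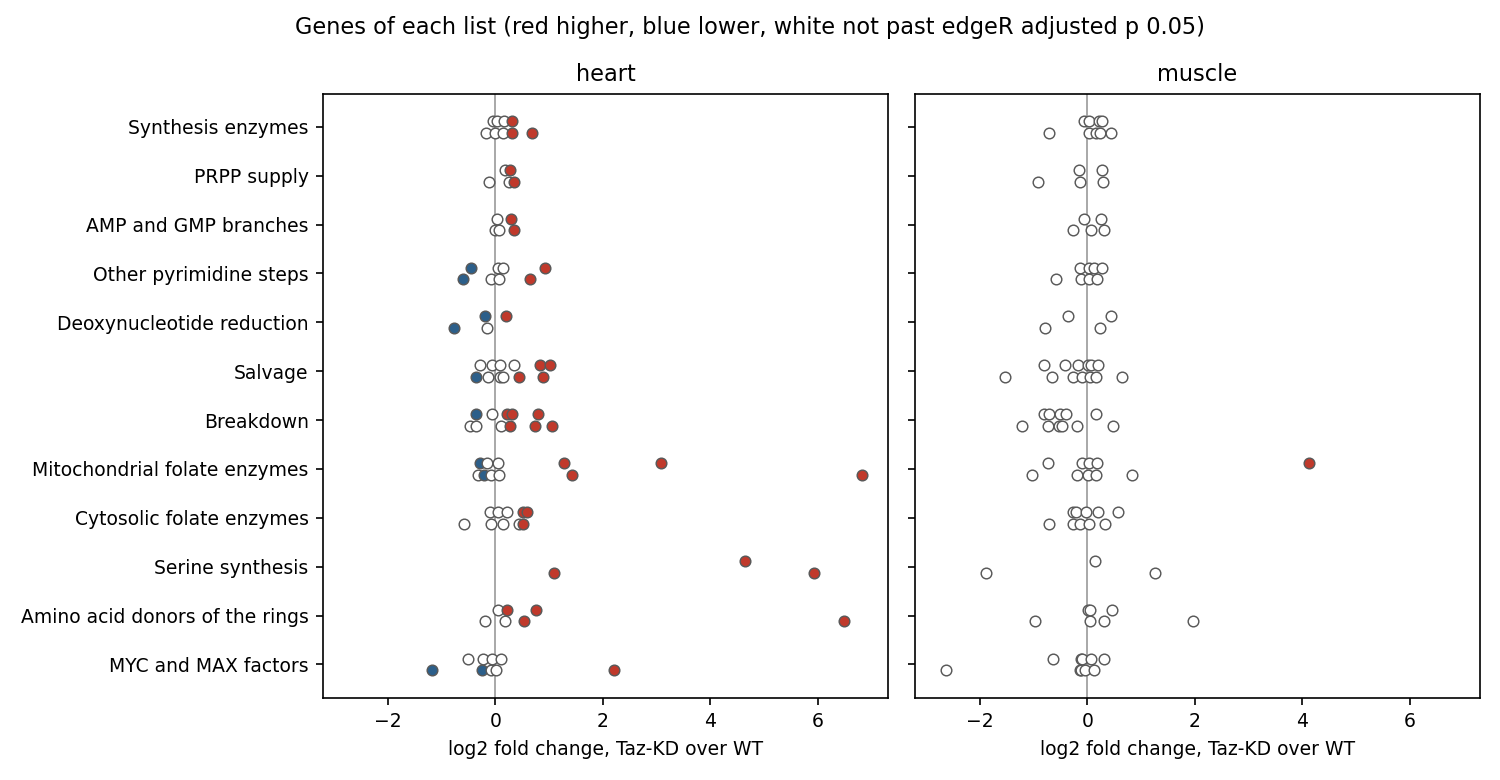
Log2 fold changes (Taz-KD over WT, horizontal axis) of each tested gene, one point per gene and one line per gene list, in heart on the left and muscle on the right; red points were higher, blue ones lower and white ones not past an edgeR adjusted p of 0.05. In heart called genes stand in each list, and in muscle Mthfd2 alone is filled.

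On either side of the 9 genes, 4 of 10 genes were called higher in heart and none lower, beside 14.4% and 10.3% of all tested genes. Of 5 genes of PRPP supply 2 were higher, Prps1, a PRPP synthetase (20.4 ± 0.586 CPM in Taz-KD and 16.02 ± 1.16 CPM in WT; log2 fold change 0.35, edgeR adjusted p = 0.0022), and Prpsap1, a protein that binds it (0.27, adjusted p = 0.016). Both lost their calls in one fit of 20 libraries (adjusted p 0.0752 and 0.0985). Prpsap1 also lost its call when scaled by library totals (0.0571) and without the hearts R1793, R1797 and R3 (0.113). Of 5 genes that turn inosine monophosphate into adenylate and guanylate, 2 of the guanylate branch were higher. They were Impdh2 (0.35, adjusted p = 0.0062, and 0.0521 in one fit of 20 libraries) and Impdh1 (0.29, adjusted p = 0.037), and Impdh1 lost its call in 10 of 21 alternatives. The other 3 were not called, among them Gmps of the same branch (-0.0027, edgeR adjusted p = 0.98), named after its values were seen.

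Steps that lead to DNA precursors were split. Of 8 other pyrimidine genes 2 were higher and 2 were lower, beside 14.4% and 10.3% of all tested genes. Ctps, which makes cytidine triphosphate, averaged 50.1 ± 11.4 CPM in Taz-KD hearts and 32.2 ± 4.06 CPM in WT hearts (log2 fold change 0.64, edgeR adjusted p = 0.0068). Dut, which supplies the substrate of Tyms, averaged 7.23 ± 0.887 CPM in Taz-KD hearts and 9.88 ± 0.383 CPM in WT hearts (log2 fold change -0.45, edgeR adjusted p = 0.0038). The mitochondrial kinase Cmpk2 had -0.61 (adjusted p = 0.0060), and Dctd, another source of that substrate, 0.92 (adjusted p = 0.039), a call lost in 10 of 21 alternatives. Of 4 genes of deoxynucleotide reduction, Rrm2, the subunit of ribonucleotide reductase made in dividing cells, fell to 1.54 ± 0.174 CPM in Taz-KD hearts, against 2.65 ± 0.335 CPM in WT hearts (log2 fold change -0.78, edgeR adjusted p = 0.0016, and 0.0571 in one fit of 20 libraries). Rrm1 had 0.20 and Rrm2b, the subunit used in resting cells, -0.20, and their calls were lost in 13 and 5 of 21 alternatives.

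Of 12 tested salvage enzymes, which rebuild nucleotides from bases and nucleosides, 4 were higher, 1 was lower and 7 were not called in heart. Across all tested genes 14.4% were higher and 10.3% lower. The median log2 fold change of the salvage enzymes was 0.12. Aprt, which recovers adenine, averaged 10.4 ± 1.29 CPM in Taz-KD hearts and 5.80 ± 0.751 CPM in WT hearts (log2 fold change 0.84, edgeR adjusted p = 0.00022). Hprt, which recovers hypoxanthine and guanine and uses PRPP as Ppat does, averaged 43.0 ± 2.44 CPM in Taz-KD hearts and 31.7 ± 2.22 CPM in WT hearts (0.44, adjusted p = 0.00038). Uck2, a uridine and cytidine kinase, had 1.02 (adjusted p = 0.0061). Adk, which recovers adenosine, fell to 78.2 ± 2.41 CPM in Taz-KD hearts, against 100.4 ± 7.49 CPM in WT hearts (log2 fold change -0.36, adjusted p = 0.00087, and 0.0772 in one fit of 20 libraries). The genotypes did not overlap for any of these 4 genes. Of all 19486 tested genes, 2201 were apart and higher in Taz-KD hearts and 1374 were apart and lower. In muscle Aprt and Hprt had log2 fold changes of 0.050 and -0.18, and the difference between tissues was 0.72 for Aprt (edgeR adjusted p = 0.0075) and 0.54 for Hprt (adjusted p = 0.037, a call lost in 18 of 31 alternatives).

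Of 11 tested breakdown genes 6 were higher and 1 was lower in heart, beside 14.4% and 10.3% of all tested genes. Nt5e, the surface nucleotidase CD73 that makes adenosine from adenylate outside cells, averaged 54.7 ± 15.9 CPM in Taz-KD hearts and 26.2 ± 4.15 CPM in WT hearts (log2 fold change 1.06, edgeR adjusted p = 0.0018), and differed between tissues (-1.21 in muscle, difference 2.18, edgeR adjusted p = 0.0015). Without A33 and A55 the log2 fold change in muscle was -0.65 and the difference 1.69 (edgeR adjusted p = 0.0028). The cytosolic nucleotidases Nt5c and Nt5c2 had 0.74 and 0.21, and the adenylate deaminase Ampd3 had -0.36 (edgeR adjusted p = 0.0087). The call on Nt5c2 was lost with library totals (0.051), in one fit of 20 libraries (0.723) and without the hearts R1793, R1797 and R3 (0.119), and that on Ampd3 in one fit of 20 libraries (0.387). Nt5e marks endothelial cells and fibroblasts among others, and of the 5 endothelial markers 3 were lower and none was higher in Taz-KD hearts, with a sum of 554 to 672 CPM in Taz-KD and 654 to 813 CPM in WT; their part in the Nt5e values was not tested. Of 7 genes that make or move the amino acids used in the rings 4 were higher, beside 14.4% of all tested genes. Asns, which uses aspartate and glutamine, had 6.48, and Got1, which makes cytosolic aspartate, averaged 840 ± 41.7 CPM in Taz-KD hearts and 495 ± 38.9 CPM in WT hearts (log2 fold change 0.76). Asl, which releases arginine and fumarate, had 0.53, with an edgeR adjusted p of 0.013, or 0.0905 without the hearts R1793, R1797 and R3. In muscle no gene of the PRPP, nucleotide, salvage, breakdown and amino acid lists was called, although Nt5e passed in one fit of 20 libraries (log2 fold change -1.15, edgeR adjusted p = 0.04997).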

How the data were processed

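Ribosomal RNA was depleted from total RNA and strand-marking libraries were made. The authors sequenced paired 150 bp reads, aligned them to GRCm38 with STAR and counted them with featureCounts 1.6.4. They then used DESeq2 2.11.40.6 for their own tests (versions from the submitters' processing notes). The deposited values are unnormalized counts, one table per tissue. For the annotation release, strand setting and multiply mapped reads, the sources used here give no details. Positions and overlaps came from GENCODE M21.

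All 20 libraries were used, each placed by its label. The edgeR 4.0.16 package in R 4.3.3 was run on the counts (filterByExpr, TMM factors, robust quasi-likelihood test, Benjamini-Hochberg adjustment over all tested genes at 0.05), per tissue and, for the interaction, over both. SDs and p-values measure the spread between libraries. The study counts mice, but the labels do not tie libraries to animals, nor say whether a mouse gave both tissues. RPKM divides CPM by the merged exon length. Genes were called apart when each library of one genotype lay above each of the other.

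The members and gene lists were chosen with earlier results of these data known. The text names the 9 members, 6 folate enzymes, genes that overlap a member or start within 2000 bases, Taz, and up to 4 genes per list with the smallest adjusted p in heart or called the other way; some listed genes are counted but not reported here by name. Alternatives were DESeq2 1.42.0, limma-voom (limma 3.58.1), other scalings and filters, dispersion without robust fitting, one fit of 20 libraries, and fits without libraries. The edgeR steps were tested on simulated data.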

Additional observations from a re-analysis of the deposited data

Results flagged for a closer look

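Among the 9 genes in the 4 groups of 5 libraries, 1 of 36 sets of values held a library far from the rest. The WT muscle A55 had 17.2 CPM of Atic, and its gap to the next library exceeded Dixon's 95% critical value of 0.71 of the range. Chance gives such a gap in about 1 of 20 groups.

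Effects of the knockdown differed between heart and muscle, by the interaction test with edgeR adjustment, for several named genes outside the 9. For the 6 refitted under the alternatives, the log2 differences (heart minus muscle) were 2.65 for Mthfd2, 0.72 for Aprt, 0.54 for Hprt, 2.18 for Nt5e, 1.17 for Nt5c and 2.23 for Myc. The difference of Nt5c was lost in 16 of 31 alternatives and that of Hprt in 18, while the other 4 held under each alternative run. Named genes that passed but were not refitted were Phgdh (7.70), Psat1 (3.29), Psph (0.88), Asns (4.41) and Mlxipl (-1.13). The folate genes Shmt2 (1.17), Mthfd1l (1.93), Aldh1l2 (2.23) and Gcsh (-0.44) also passed without being refitted. Their edgeR adjusted p ran from 3.5e-05 (Shmt2) to 0.042 (Gcsh). The tissues were deposited as separate tables with separate sets of labels, so tissue and library handling cannot be told apart in these differences.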

How the results depend on the processing

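In heart the calls on Atic, Paics and Umps held under all alternatives but one, a single fit of all 20 libraries, in which 1 of the 9 genes (Atic) and 2087 genes in all were called. Without 1 library, 3 to 4 of the 9 were called. In muscle none of the 9 was called under any alternative, while all genes called numbered 145 with DESeq2, 167 in one fit of 20 libraries and 3 to 5 without 1 library. For the interaction, 1 of the 9 (Atic) was called without WT muscles A33 and A55, 0 to 1 without 1 library, and all genes called numbered 1589 with DESeq2, 399 without the hearts R1793, R1797 and R3, 607 without the Taz-KD heart R1796 and 2042 without the WT muscle A57.

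Leaving out 1 heart ended the call on Dctd for 6 hearts (adjusted p up to 0.102, without R1796), Gcsh for 5 (0.0697, without R1795), Impdh1 for 6 (0.0908, without R1793), Mthfd2l for 8 (0.134, without R1792), Rrm1 for 7 (0.0891, without R1795) and Rrm2b for 3 (0.0571, without R1792).

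Log2 fold changes that turned sign were of uncalled genes. In heart, Cad was -0.015 with upper-quartile factors and -0.0011 in one fit of 20 libraries, and Ppat was 0.014 without a filter. Without the hearts R1793, R1797 and R3, Ppat was 0.00098, Pfas 0.0085 and Cad -0.0075 in heart, and Pfas 0.031 for the interaction. Without 1 library, Ppat ran from -0.036 to 0.024, Pfas from -0.079 to 0.014 and Cad from -0.050 to 0.097. In muscle, scaling by library totals, which moved the median of all genes to -0.16, gave -0.10 for Cad, -0.13 for Umps and -0.086 for Aprt. Without A33 and A55, Gart was -0.050, Hprt 0.019, Nt5c 0.041 and Myc 0.17. Without 1 library, Umps ran from -0.050 to 0.15, Pfas from -0.13 to 0.010, Cad from -0.017 to 0.12, Aprt from -0.024 to 0.092 and Myc from -0.23 to 0.25. For the interaction, library totals gave 0.097 for Gart, 0.15 for Pfas, 0.028 for Adsl and 0.12 for Cad. Pfas was 0.013 with at least 10 counts in every library, and Paics -0.011 without hearts R2 and R3. Without A33 and A55, Gart was 0.18, Adsl 0.11 and Tyms -0.024. Without 1 library, Pfas ran from -0.078 to 0.074, Gart from -0.13 to 0.13, Paics from -0.0087 to 0.17 and Cad from -0.16 to 0.022. The cause of these changes was not tested.

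No paired analysis was possible because the groups share no replicate numbers. Each p-value measures the spread between 5 libraries a group, and Tyms in muscle rests on few counts.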
